A study of Mus musculus with 2 samples.

Results

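The cells described here are 200 cells of the EL1 pancreatic tumour library that carried the most RNA of a small set of neuroendocrine and epithelial genes, among them Penk, Hdc and Tff3. They were taken from 975 EL1 cells that passed a filter of at least 500 genes, at least 5000 unique molecular identifiers (UMIs, 1 per counted RNA molecule) and at most 20% mitochondrial UMIs. Each cell was given a score, the mean over Resp18, Penk, Tff3, Hdc, Chga, Krt20 and Cldn7 of the natural logarithm of 1 plus the UMIs per 10000, and the 200 highest scores made the group. The same filter kept 748 cells of the second library, WTg, so the members were 200 of 1723 cells in all. The 7 score genes are what the cells were chosen by, and their levels are given as a description only.

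EL1 mice are an FVB/N line that carries the SV40 T antigen and luciferase, each driven by the rodent elastase I promoter, which is active in pancreatic acinar cells. WTg mice are EL1 mice crossed with a C57BL/6 transgenic line in which the CAG promoter, active in most tissues, drives the coding sequence of Mettl3, so that strain background and transgene cannot be told apart. Both groups therefore carry the T antigen, and both were sampled at 6 weeks of age. Each group had 1 library, and neither the number nor the sex of the animals behind it is stated. No comparison in these data has a replicate, no difference was tested, and all intervals below are 95% intervals that cover counting error only.

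Neuroendocrine cells store peptides and amines in dense-core granules and release them when calcium enters the cell. Granins such as chromogranin A (Chga) and chromogranin B (Chgb) form the core of these granules, prohormone convertases cut the peptide precursors inside them, and vesicular monoamine transporters fill them with amines. Penk encodes the precursor of the enkephalins, which are opioid peptides, and Hdc encodes histidine decarboxylase, the enzyme that makes histamine and that marks the enterochromaffin-like cells of the stomach as well as mast cells and basophils. Tff3 encodes a trefoil peptide secreted by mucous epithelia, Resp18 a protein of endocrine granules, Krt20 a keratin of mature gut epithelium and Cldn7 a tight junction protein.

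The members held 6368333 UMIs, with 5589 in the shallowest cell, a median of 25462.5 and 170081 in the deepest. The 775 remaining EL1 cells held 31268183 UMIs at a median of 30662. The median share of mitochondrial UMIs was 3.94% in the members and 4.2% in the remaining cells. A total of 15 barcodes occurred in both libraries, 14 of them among the kept EL1 cells and 1 among the members, and leaving them out kept the counts of all higher and all lower genes, of higher granule genes and of lower acinar enzymes within 1.5 times, while the count of 1 lower G2/M gene became 0. Scrublet called 4 EL1 cells doublets, 1 of them a member.

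The score declined without a break across the limit. It was 2.158 in the highest cell, 1.324 at the member median, 1.014 in the last member and 1.012 in the next cell, and the remaining cells had a median of 0.294. The 5 cells just inside the limit lay between 1.028 and 1.014, and the 5 just outside between 1.012 and 1.008. No gap in the score set the members apart at the limit.

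**Figure D1:**
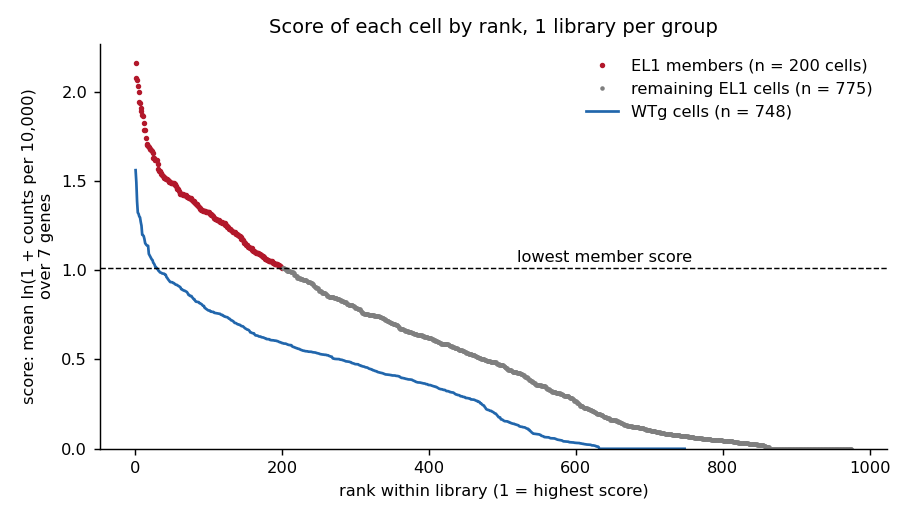
Score of each cell (mean natural logarithm of 1 plus UMIs per 10000 over 7 genes) against its rank within its library, for the 200 EL1 members, the 775 remaining EL1 cells and the 748 WTg cells. The curve passes the dashed line at the lowest member score, 1.014, without a gap, and 29 WTg cells lie on or above it.

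The score genes differed widely in how many members carried them. To compare shares of cells, each cell was thinned to 5000 UMIs, and 27 leukocyte cells of the same library, which should lack these genes, gave the background from free RNA (median 18518 UMIs before thinning, against 25462.5 in the members). Chga (chromosome 12, 102554969 to 102565028, GRCm38) was found in 100% of thinned members, 61.8% of the remaining cells and 37.0% of the leukocyte cells. Its level in a single member was 30.7 UMIs per 10000 at the lowest, 110 at the median and 472 at the highest, against a median of 4.55 in the remaining cells. Summed over cells, Chga stood at 11795.7 counts per 1000000 UMIs (CPM) in the members, 1890.0 CPM in the remaining cells and 91.4 CPM in the leukocyte cells. Tff3 (chromosome 17, 31125306 to 31129646) was found in 89.5% of thinned members (84.4 to 93.4), 21.3% of the remaining cells and none of the 27 leukocyte cells, which allows a share of up to 11.1%. In single members it ran from 0 over a median of 10.1 to 54.2 UMIs per 10000.

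The other score genes were carried by a minority of the members after thinning. Resp18 (chromosome 1, 75272199 to 75278415) was found in 47.5% of them, at 156 CPM against 6.72 CPM in the remaining cells. Penk (chromosome 4, 4133531 to 4138819) was found in 31.0% of members and 0.645% of the remaining cells, at 182 CPM against 2.11 CPM. Its highest member had 61.7 UMIs per 10000, the median was 0, and 12 members held at least 50% of its 1161 UMIs. Hdc (chromosome 2, 126593667 to 126619299) was found in 30.5% of members, 1.16% of the remaining cells and 1 of the 27 leukocyte cells, at 125 CPM against 2.37 CPM. At least 50% of its 797 UMIs lay in 14 members, and its levels in single members ran from 0 to 18.6 UMIs per 10000, again with a median of 0. Cldn7 (chromosome 11, 69964779 to 69967885) was found in 21.0% of members at 61.2 CPM, and Krt20 (chromosome 11, 99428403 to 99438150) in 9.5% at 40.2 CPM. Without thinning, 98 members had a Penk UMI, 90 an Hdc UMI and 51 a Krt20 UMI. Of the 200 members, 85 carried 3 of the 7 genes after thinning, 51 carried 4 and 39 carried 2, and none carried all 7.

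**Figure D2:**
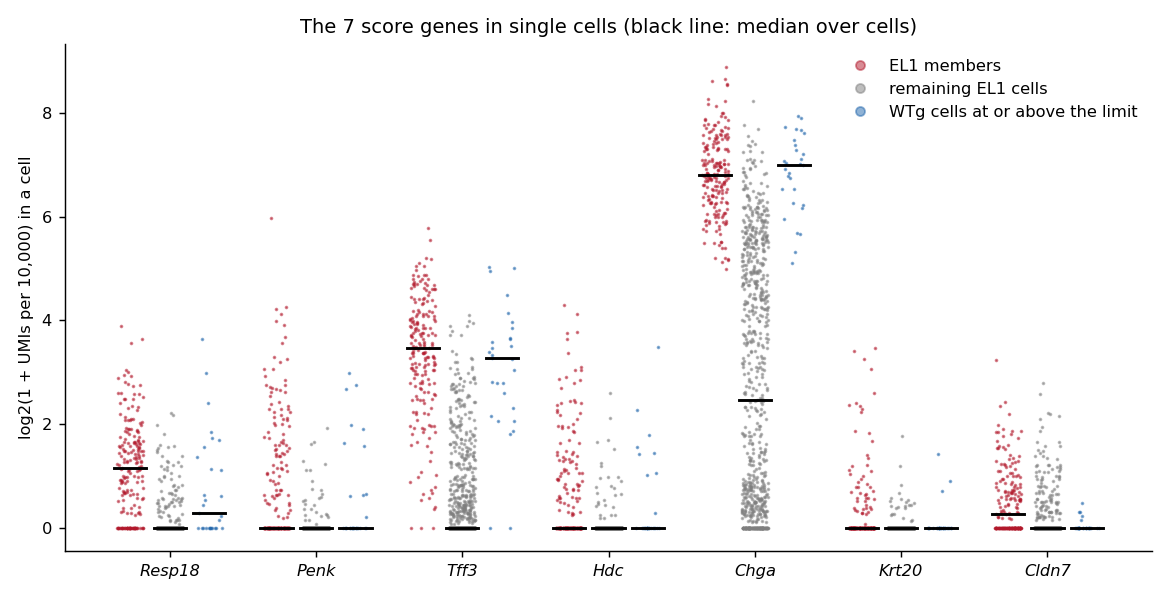
Level of each of the 7 score genes in single cells, as log2 of 1 plus UMIs per 10000, for the 200 EL1 members, the 775 remaining EL1 cells and the 29 WTg cells at or above the lowest member score, with the median over cells as a black line. Chga and Tff3 lie high in nearly all members, whereas the medians of Penk, Hdc and Krt20 are 0.

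Genes of the granules and of amine transport were higher in the members than in the remaining cells, as the next paragraphs describe. A short element was matched in promoters of some granule, convertase, amine, exocytosis and score genes. Outside the score, only Chgb, Pcsk1 and Slc18a2 of the matched genes were called higher. The element is the cyclic AMP response element, written here as TGACGTNA, or TNACGTCA on the other strand, where N is any base. Windows of 28 bases around the match are shown for the granule, convertase, amine and score genes on which the text turns. They were read 5′ to 3′ on the strand of the gene from RefSeq promoters of GRCm38.p6, each 250 bases before to 50 after a start site, and the match is in capitals.
Chga, chr12:102554887-102554914 (+): ggcggtcctaTGACGTAAtttcctgggt
Chgb, chr2:132781560-132781587 (+): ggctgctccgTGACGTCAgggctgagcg
Scg2, chr1:79440077-79440104 (-): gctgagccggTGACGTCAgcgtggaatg
Pcsk1, chr13:75089769-75089796 (+): caggtagatcTGACGTCAagagatggct
Slc18a2, chr19:59260864-59260891 (+): gcgctgtccgTGACGTCAgagccggact
Cldn7, chr11:69965373-69965400 (+): gtcccttcagTGACGTCAggtcactcga

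The match began 44 bases before the start site in Chga, 72 in Chgb, 68 in Scg2, 78 in Pcsk1, 4 in Slc18a2 and 38 in Cldn7. Of 32851 promoters in the table, 2.93% held the element, and of 27025 genes with a promoter there, 3.36% had it. It was present for 4 of 18 genes of the secretory granule list, 2 of 12 of prohormone processing, 2 of 15 of the amine list, 1 of 16 of regulated exocytosis and 0 of 21 acinar enzymes. The granule count includes Chga, a score gene. These list counts and the windows leave out genes on chromosome 18, whereas the shares over all promoters and genes keep them. Promoters of 5 of the 7 score genes were found in the table. A match is a description of these letters and not a binding site, and its presence did not go with RNA in every case. Scg2 (secretogranin II), which has the full element, had 0 UMIs in the members and in the remaining EL1 cells. The element was also matched in Rab3a, Furin, Napa and Th, whose windows are not shown and which were not called higher. By score rank, Rab3a stood at 5.32 CPM in ranks 1 to 50 and 3.58 CPM in ranks 401 to 975. Furin stood at 69.1 and 40 CPM and Napa at 82.4 and 74.7 CPM in the same groups, and the level of Th is given below.

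Across the genome, 12075 genes other than the score genes had at least 50 UMIs in at least 20 EL1 cells. A gene was called higher or lower where its log2 ratio of CPM, members over remaining cells, was at least 1 or at most -1. By this rule 898 genes, or 7.44%, were higher and 593, or 4.91%, were lower. These percentages are the background against which every list count below is to be read. The median log2 ratio of all genes was 0.23. With TMM scaling (a scaling by the trimmed mean of gene ratios) the median shifted by -0.28, and 547 genes were then higher and 798 lower, so that the higher genes made up 40.7% of the calls against 60.2%. Because the cells were chosen and compared on the same counts, all of these values describe the members and test nothing.

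The label of the cells was checked with 12 neuroendocrine markers that the score did not use. Of these, 10 had enough UMIs, 8 were higher in the members and none was lower. Cpe and Insm1 lay in between and Scg2 was at 0, as was said above. Pcsk1n had too few UMIs to be measured. It lay between 0 and 3.24 CPM in groups of 50 members by rank, and at 9.67 CPM in the next 50 cells. Prohormone convertase 2 (Pcsk2), although called higher, had only 45 UMIs in 12 members, 2 of which held at least 50% of them, and its log2 ratio turned from 3.88 to -1.40 when the 100 highest scores were taken in place of 200. Neurod1, also called higher, had few UMIs and reached at most 4.87 CPM in groups of 50 members by rank.

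Of 15 secretory granule genes measured, 11 were higher and 0 lower, with a median log2 ratio of 1.68. Chgb (chromosome 2, 132781278 to 132795079), the granin next in abundance to Chga, was present in all 200 members and in 309 of the 775 remaining cells. After thinning it was found in 89.5% of members, 23.2% of the remaining cells and 3.7% of the leukocyte cells. Its level in a single member was 0.587 UMIs per 10000 at the lowest, 6.40 at the median and 51.4 at the highest. In the remaining cells it ran from 0 to 20.9 with a median of 0, so the ranges overlapped. Summed over cells it stood at 687 CPM (667 to 708) against 88.6 CPM (85.3 to 92), a log2 ratio of 2.96 (2.89 to 3.03). Scg5, a chaperone of prohormone convertase 2, stood at 155 against 19.8 CPM. Scg3, which binds Chga in the granule membrane, stood at 47.9 against 5.37 CPM, with a log2 ratio of 3.16 (2.88 to 3.44). Vgf, a granin-like precursor of several peptides, stood at 475 against 125 CPM. The granule membrane protein Ptprn and the vesicle protein synaptophysin (Syp) had log2 ratios of 2.55 and 1.83. Cpe, the carboxypeptidase that trims peptides in the granule, was abundant in both sets, at 376 and 275 CPM. The summed list, score genes left out, made 23.8 UMIs per 10000 in the median member and 6.36 in the median remaining cell.

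The machinery of calcium-triggered release showed the same direction. Of 20 genes of regulated exocytosis, 14 were higher and 0 lower, with a median log2 ratio of 1.40. Snap25, a membrane fusion protein, stood at 298 against 72.4 CPM, a log2 ratio of 2.04 (1.95 to 2.13). The syntaxin Stx1a and the calcium sensor Syt5 had log2 ratios of 2.72 and 2.47, while Vamp2, their partner on the vesicle, had 0.91. Of 16 genes of voltage-gated calcium and sodium channels and of the ATP-sensitive potassium channel, 13 were higher and 0 lower, with a median of 1.54. The T-type calcium channel gene Cacna1h stood at 55.6 against 12.1 CPM. The L-type channel gene Cacna1d stood at 120 against 53.1 CPM. Both genes of the ATP-sensitive potassium channel, Kcnj11 (20.6 against 5.44 CPM) and Abcc8 (12.2 against 4.99 CPM), were among those higher. With TMM scaling the exocytosis list had 11 genes higher and 1 lower, and the channel list 12 higher.

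**Figure D3:**
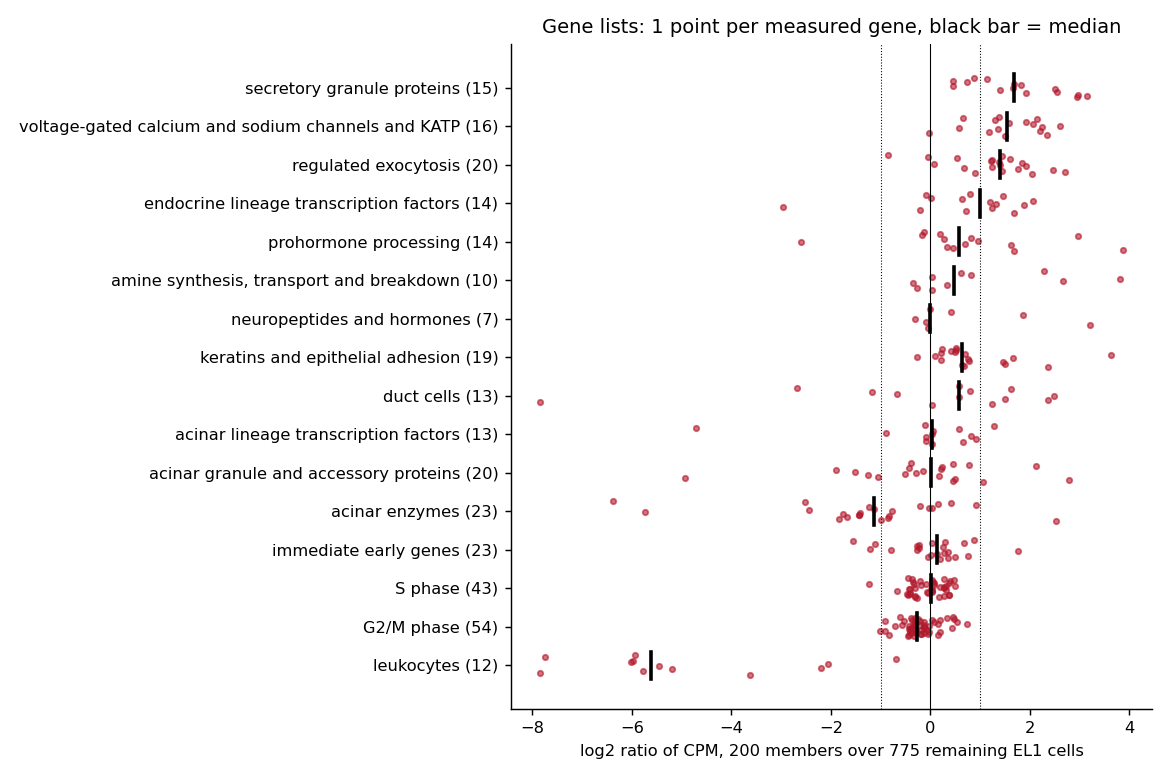
Log2 ratio of CPM, 200 members over 775 remaining EL1 cells, for each measured gene of 16 lists (number of genes in brackets), with the median as a black bar and the limits of -1 and 1 as dotted lines. The granule, channel and exocytosis lists lie to the right with medians of 1.68, 1.54 and 1.40, and the acinar enzymes to the left with a median of -1.13. The S phase and G2/M lists have medians of 0.02 and -0.26, both below the median of 0.23 over all genes.

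Few peptides other than enkephalin and galanin were carried by the members. Of 34 peptide and hormone genes besides Penk, 19 had 0 UMIs in the members, and 7 were measured over both sets, of which 2 were higher. Insulin (Ins1 and Ins2), glucagon (Gcg), somatostatin (Sst), gastrin (Gast), cholecystokinin (Cck) and amylin (Iapp) each had 0 UMIs, where 3 UMIs would correspond to 0.471 CPM. Ghrelin (Ghrl) had 36 UMIs in 20 members, or 5.65 CPM against 0.608 CPM in the remaining cells. Neuromedin U (Nmu) stood at 8.01 against 2.21 CPM. Galanin (Gal), the only other peptide gene with over 1000 UMIs in the members, did not follow the score, at 168 CPM in the members and 174 CPM in the remaining cells, a log2 ratio of -0.05 (-0.15 to 0.04). It ran from 0 to 71.8 UMIs per 10000 in single members. Of 14 genes of prohormone processing, 4 were higher and 1 lower. Pcsk1, prohormone convertase 1, stood at 24.2 against 7.55 CPM, and Pam, which amidates peptides, at 205 against 66.6 CPM. Pcsk5 was the one lower, on 3 UMIs in the members. The opioid receptor genes Oprm1 and Oprk1 had 0 UMIs in both sets of EL1 cells, and Oprd1 had 0 UMIs in the members and 4 in the remaining cells.

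Amine transporters were higher together with Hdc, whereas the enzymes of the other amines were not. Of 10 measured genes of amine synthesis, transport and breakdown, 3 were higher and 0 lower. Slc18a2 (chromosome 19, 59260896 to 59296012), the vesicular monoamine transporter that loads histamine, serotonin and catecholamines into vesicles, was found in 117 members and 81 remaining cells, and had 0 UMIs in the leukocyte cells. It ran from 0 over a median of 0.337 to 10.0 UMIs per 10000 in single members and up to 2.71 in the remaining cells. Its summed level was 79.6 CPM (72.8 to 86.9) against 5.69 CPM (4.89 to 6.59), a log2 ratio of 3.81 (3.56 to 4.06). The related transporter Slc18a1 stood at 7.54 against 1.18 CPM and the serotonin uptake transporter Slc6a4 at 26.4 against 5.44 CPM. Ddc, the decarboxylase of serotonin and dopamine synthesis, stood at 29 and 28.2 CPM. Tph1 and Dbh, enzymes of serotonin and noradrenaline synthesis, had 0 UMIs in the members, and tyrosine hydroxylase (Th) had 1. Cckbr, the gastrin receptor of enterochromaffin-like cells, stood at 7.38 against 1.82 CPM. Of the defining mast cell and basophil markers, Tpsab1, Mcpt4, Fcer1a and Ms4a2 had 0 UMIs in the members, and Cpa3 had 18. Of 4 measured genes of the mast cell list, 2 were lower and 0 higher, and Kit, a receptor kinase of mast cells and other cells, had 114 UMIs in 73 members and a log2 ratio of 0.78. The 2 lower calls depended on other cell types among the remaining cells. Without leukocyte, endothelial, fibroblast and red blood cells there, 3 genes of the list were measured. Of these, 0 were lower and 0 higher, with a median log2 ratio of 0.76.

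Penk and Hdc were carried by overlapping sets of members. After thinning, 14 members had both, 48 had Penk alone, 47 had Hdc alone and 91 had neither. Both genes went into the score, so a cell high in one needed less of the other to be chosen, and these counts are a description only. In the splits below, cells with a UMI are those that kept 1 after thinning, so cells counted as without can hold the gene at full depth. Before thinning, 90 members and 28 remaining EL1 cells had an Hdc UMI. Among genes the score did not use, Slc18a2 differed between members with and without an Hdc UMI after thinning. It stood at 131 CPM in 61 members with it and 51.1 CPM in 139 without, a log2 ratio of 1.36 (1.10 to 1.62). Chgb did not follow Hdc among the members, at 699 and 681 CPM. The 9 remaining EL1 cells with an Hdc UMI had more Slc18a2, 96.2 CPM against 5.12 CPM in the 766 without, and also more Chgb, 623 against 85.2 CPM. Over all 748 WTg cells, Slc18a2 stood at 139 CPM in 6 cells with an Hdc UMI and 18.6 CPM in 742 without. All 6 were among the 29 high-scoring WTg cells, and within these 29 the direction was the opposite, with 252 CPM in the 23 without. Before thinning, the WTg cells below the limit held 16 Hdc UMIs. Members with an Hdc UMI had less Gp2 (375 against 774 CPM), less Reg1 (17568.9 against 31812.2 CPM) and more Mki67 (153 against 92.8 CPM), and they were deeper, with a median of 30257 against 22788 UMIs. Members with a Penk UMI had less Gal, at 74.6 against 210 CPM, and were also deeper, with 28276 against 23475.5 UMIs. Over all 6767 genes with at least 100 UMIs in the members, 0.222% were higher and 0.148% lower by at least 1 on the log2 scale with Hdc, and 0.0443% and 0.266% with Penk.

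The transcription factors of the endocrine lineage were mixed. Of 14 measured, 7 were higher and 1 lower. St18, Prox1 and Pdx1 stood at 42.2 against 10.1, 102 against 36.9 and 59.2 against 24.9 CPM. Pdx1 acts in the early pancreas and in beta cells, and Prox1 in the development of several endodermal organs. Neurod1, a factor of endocrine differentiation, was higher on few UMIs, at 3.30 against 1.02 CPM. In groups of 50 members by rank it lay between 0.596 and 4.87 CPM. Of other factors of the list, Pax6 and Isl1 lay at up to 0.648 and 1.3 CPM in these groups, and Fev at 0. Insm1, a general neuroendocrine factor, stood at 62.2 against 37.8 CPM, a log2 ratio of 0.72 (0.55 to 0.89). Neurog3 and Pax4, which set up islet lineages in the embryo, had 0 UMIs in the members. With TMM scaling 5 factors of the list were higher.

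The members held acinar enzyme RNA well above the level in the leukocyte cells, and below that in the remaining EL1 cells. Summed over the list, acinar enzymes made 84359.1 CPM in the members, 175195.9 CPM in the remaining cells and 3498.1 CPM in the leukocyte cells. In single members the list ran from 91.9 over a median of 676 to 2989.2 UMIs per 10000. Of 23 enzymes measured, 12 were lower and 1 higher, with a median log2 ratio of -1.13. The chymotrypsinogen Ctrb1 stood at 9941.1 against 26376.5 CPM, a log2 ratio of -1.41 (-1.42 to -1.40), and was present in all 200 members, from 1.30 over a median of 61.1 to 434 UMIs per 10000. Ctrl, a chymotrypsin-like protease, stood at 0.314 against 16.9 CPM. The lipase Cel lay in the other direction, at 7262.3 against 3843.7 CPM. Trypsinogens are near-identical copies whose reads may be split between genes. Prss1, the enzyme called higher, is one of them, and 1 member held at least 50% of its 735 UMIs, with a log2 ratio that turned from 2.52 to -1.23 with the 100 highest scores. With TMM scaling 16 enzymes were lower and 1 higher.

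Other acinar genes were mixed. Of 20 genes of acinar granule and accessory proteins, 3 were higher and 5 lower, with a median log2 ratio of 0.01. Reg1, an abundant secreted acinar protein, stood at 26756.0 CPM in the members and 23765.1 CPM in the remaining cells, and at 477 CPM in the leukocyte cells. Gp2 (chromosome 7, 119442537 to 119459285), the major membrane protein of zymogen granules, stood at 633 CPM (613 to 652) against 91.8 CPM (88.5 to 95.2), a log2 ratio of 2.79 (2.72 to 2.85). It was found in 185 members, from 0 over a median of 3.90 to 51.3 UMIs per 10000, and in 359 remaining cells. The mucin Muc1 had a log2 ratio of 2.12, and Dmbt1 and Reg3g, which are secreted in mucosal defence, had -4.94 and -1.51. Of 13 factors of the acinar lineage, 1 was higher (Creb3l1) and 1 lower (Mecom). Ptf1a, a factor that drives acinar genes, stood at 54.2 and 52.8 CPM, a log2 ratio of 0.04 (-0.14 to 0.20), and its partner Rbpjl at 184 and 117 CPM. Bhlha15, a factor of mature acinar cells, stood at 42.1 and 44.6 CPM. The positive ratios of Reg1 and Ptf1a were smaller than the shift of -0.28 that TMM scaling makes, so that their direction depends on the scaling.

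Epithelial and duct genes were partly higher. Among 19 keratin and adhesion genes besides Krt20 and Cldn7, 5 were higher and 0 lower. Krt7, a duct keratin, stood at 112 against 21.7 CPM and Krt19 at 67.4 against 23.8 CPM. Epcam, a surface protein of epithelial cells, stood at 1224.7 against 445 CPM. The keratins of simple epithelia were abundant in both sets, with Krt8 at 9073.3 and 5642.0 CPM. Of 13 duct genes, 5 were higher and 3 lower. Among those higher was Ambp, a secreted lipocalin precursor, at 623 against 111 CPM. The duct factor Sox9 stood at 240 and 233 CPM, and Spp1, osteopontin, at 0.157 against 36.1 CPM. The chloride channel of duct cells, Cftr, had 0 UMIs in both sets, and so did the goblet cell markers Agr2 and Fcgbp. Muc2 had 0 UMIs in the members. Of the tuft cell markers Dclk1, Trpm5, Avil and Pou2f3, the first 3 had 0 UMIs in the members and the last had 1.

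Leukocyte markers were near 0 in the members, apart from C1qa, while single genes of the stroma lists were not. The 6 leukocyte markers that defined the background cells had 14 UMIs in 13 members, and no member had over 10 of them per 10000 UMIs, while 27 remaining cells did. Over a wider list of 19 leukocyte genes, the members had 533 UMIs, of which 457 belonged to C1qa in 122 cells, and C1qb had 3. The 5 defining fibroblast markers had 1 UMI, while a wider fibroblast list had 168 UMIs, and 1 of its 2 measured genes, the growth factor receptor gene Pdgfrb, was higher, at 17.1 against 7.48 CPM. The 3 red blood cell markers had 163 UMIs, and 1 member exceeded 10 per 10000. Of 3 measured genes of endothelial cells, 2 were higher and 0 lower, with a median log2 ratio of 1.55. Plvap, which forms diaphragms of small vessel pores, had 289 UMIs in 123 members, or 45.4 against 8.95 CPM, and Egfl7 stood at 9.74 against 3.33 CPM. The 4 defining endothelial markers had 78 UMIs in the members, 62 of Egfl7 and 16 of Pecam1, with Cdh5 and Kdr at 0. Whether other cell types contribute to these levels was not tested.

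Few cell cycle and stress genes were past the limit. None of 43 S phase genes was higher and 1, Rrm2, was lower. None of 54 G2/M genes was higher and 1, Pimreg, was lower, with a median log2 ratio of -0.26 for the list, against 0.23 over all genes. The proliferation marker Mki67 stood at 114 and 152 CPM, with a log2 ratio of -0.41 (-0.53 to -0.30). By score rank it was lowest at the top, with 50.5 CPM in ranks 1 to 50. It stood at 131 CPM in ranks 51 to 100 and 156 CPM in ranks 401 to 975. Pcna, of the S phase list, did not follow this order, at 191 CPM in ranks 1 to 50 and 165 CPM in ranks 401 to 975. In single members the summed G2/M list ran from 2.64 over a median of 12.1 to 207 UMIs per 10000, against a median of 11.3 in the remaining cells. The count for the G2/M list depended on the setting and lay between 0 and 5. Plk1, the mitotic kinase of the study, had 26 UMIs in 11 members, or 4.08 against 8.35 CPM. Its log2 ratio was -1.03, which made it the 1 lower gene among 13 mitotic kinase genes, with 0 higher. Under 4 alternative settings it was no longer past the limit. Mettl3, the m6A methyltransferase subunit that the study examined, stood at 12.7 against 15.4 CPM, with a log2 ratio of -0.27 (-0.63 to 0.07), and none of 19 measured genes of the m6A machinery was past the limit of 1 in either direction. None of 24 genes of the unfolded protein response was past the limit. Among 23 immediate early genes, Egr3 was higher, at 335 against 98.3 CPM, and Myc, Ier3 and Klf6 were lower. Of the remaining lists, 2 of 14 Notch pathway genes were lower, 2 of 14 genes of MHC class I presentation were higher (H2-T23 at 41.0 against 12.8 CPM, and Tapbp), 3 of 6 gastric gland genes were lower (the proton pump genes Atp4a and Atp4b, and Esrrg), and none of 20 genes of the RB pathway was past the limit.

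The genes with the largest ratios, taken by a fixed rule, held few granule genes. The rule took 15 genes with the highest and 15 with the lowest ratios, out of those with at least 200 UMIs, found in at least 20% of the members or of the remaining cells. The highest was C1qtnf1, a secreted relative of complement C1q, at 25.8 against 1.70 CPM, a log2 ratio of 3.93 (3.47 to 4.40). Vsig2 (chromosome 9, 37539255 to 37544205), a membrane protein with immunoglobulin domains, was found in 120 members and 44 remaining cells, at 52.1 against 3.55 CPM, a log2 ratio of 3.88 (3.56 to 4.2). Serpina1d and Serpina1b, copies of the alpha-1 antitrypsin gene, followed with 3.85 and 3.30, and reads may be split among these near-identical copies. Celf4, an RNA-binding protein of neurons, was found in 167 members, at 148 against 15.4 CPM. Slc39a5, a zinc importer, was found in 138 members, at 63.0 against 5.76 CPM. Npas4, a factor induced by calcium entry in neurons, stood at 109 against 12.1 CPM, and 20 members held at least 50% of its 696 UMIs. Tnr (a matrix protein of the brain), Gnao1 (a G protein subunit of neurons and endocrine cells) and Dio1 (a deiodinase that activates thyroid hormone) had log2 ratios of 3.19, 3.09 and 3.1. Slc18a2 and Scg3, given above, and Fam183b, Serinc2 and Dbpht2 completed the 15, all at 3.16 or more. The range of each of these genes in single members began at 0 and overlapped that of the remaining cells.

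The lowest ratio was that of Klk1 (chromosome 7, 44225360 to 44229618), tissue kallikrein. It had 120 UMIs in 50 members, 2 of which held at least 50% of them, and 49065 UMIs in 266 remaining cells, or 18.8 CPM (15.6 to 22.5) against 1569.2 CPM (1555.3 to 1583.1). Its log2 ratio was -6.38 (-6.65 to -6.12). This low level was shared by cells ranked just below the members. Klk1 stood at 44.1 CPM in ranks 151 to 200, 9.03 CPM in the next 50 ranks and 106 CPM in ranks 251 to 300. It stood at 369 CPM in ranks 351 to 400 and 2000.8 CPM in ranks 401 to 975. In the clustering described below, Klk1 led a cluster of 72 EL1 cells that held 0 members. Mecom (chromosome 3, 29951296 to 30548008), a zinc finger transcription factor, had 5 UMIs in 5 members and 642 UMIs in 299 remaining cells, a log2 ratio of -4.71 (-6.34 to -3.48). Pla1a, a phospholipase of phosphatidylserine, and Aqp12, an aquaporin of acinar cells, had -4.07 and -3.32, and Sntb1, a syntrophin, had -2.97. S100g, a calcium-binding protein, had 85 UMIs in 6 members, at least 50% of them in 1 cell, and 3263 UMIs in 251 remaining cells. Of the 15 genes, 4 were strongly expressed by the leukocyte cells: Hmox1, a heme-degrading enzyme, at 5068.1 CPM, Gdf15 at 835 CPM, Mgst1 at 313 CPM and Filip1l at 136 CPM. Without leukocyte, endothelial, fibroblast and red blood cells among the remaining cells, the log2 ratio of Hmox1 moved from -4.18 to -2.63 and that of Gdf15 from -3.14 to -2.45, and those of Mgst1 and Filip1l were -3.83 and -3.14. Arhgap28, Ttc23, Tinag, Cryab and Creb5 completed the 15, between -3.37 and -2.96.

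Chgb, Slc18a2 and Gp2 declined gradually along the score, with no step at the limit of the members. In groups of 50 cells by rank, Chgb stood at 807 CPM in ranks 1 to 50, 534 CPM in ranks 151 to 200, 486 CPM in the next 50 ranks and 176 CPM in ranks 351 to 400, and at 26.9 CPM in all lower ranks. Slc18a2 ran through 107, 32.8, 34.2, 9.01 and 1.12 CPM in the same groups, and Gp2 through 824, 493, 391, 144 and 44.9 CPM. Vsig2 lay at 42.9 CPM just inside and 19.3 CPM just outside the limit. Mecom lay the other way, at 1.79 CPM in ranks 151 to 200, 4.51 CPM in the next 50 and 13.8 CPM in ranks 351 to 400, and Ctrb1 lay at 11611.5 CPM just inside and 9678.4 CPM just outside. Ptf1a showed no order, between 31.3 and 63.2 CPM in all groups. Median depth in these groups lay between 21524.5 UMIs for ranks 1 to 50 and 31740.0 UMIs for ranks 401 to 975.

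**Figure D4:**
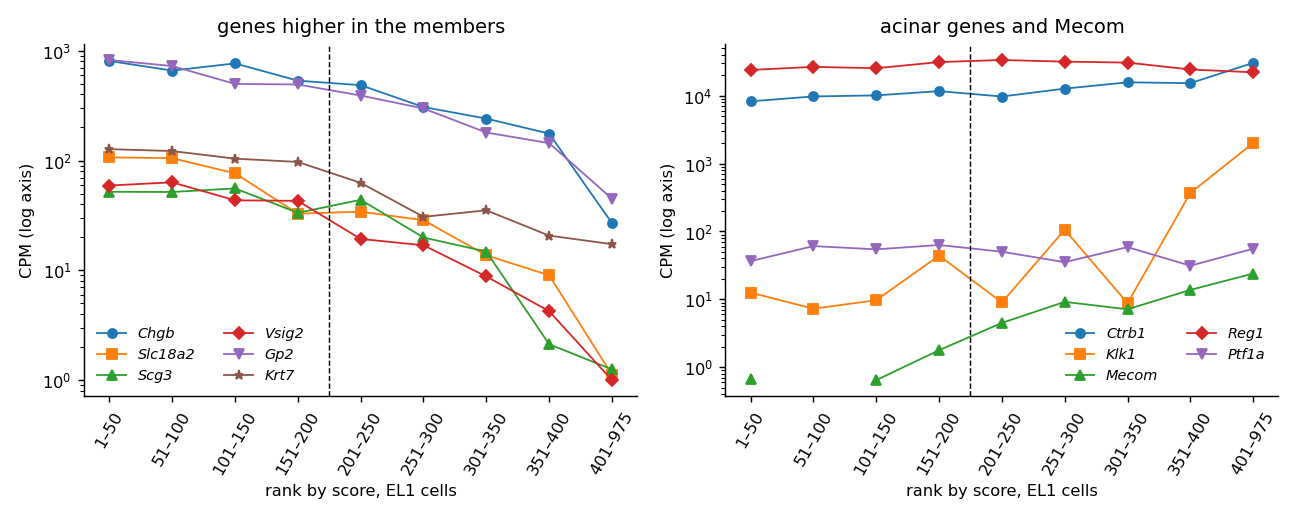
Level in CPM (log axis) in groups of 50 EL1 cells by rank of the score, the last group holding ranks 401 to 975, with the limit of the members as a dashed line. Chgb, Slc18a2 and Gp2 decline across the limit without a step, Ptf1a stays between 31.3 and 63.2 CPM, and Mecom has no point in ranks 51 to 100, where it had 0 UMIs.

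When the 975 EL1 cells were clustered without the 7 score genes, 137 of the 200 members fell into 1 of 12 clusters, which held 181 cells. A second group of 20 members lay in a cluster of 100 cells that was led by histone and mitotic genes, such as Hist1h2ap and Ube2c. Another 16 lay in a cluster of 160 cells and 15 in a small cluster of 28 cells, and no member lay in 4 clusters, 2 of which were led by leukocyte genes.

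The WTg library, which had no part in choosing the members, held 29 cells with a score of at least 1.014, or 3.88% of 748 (2.61 to 5.52). They had 1006465 UMIs at a median of 25845, and in them 3 UMIs correspond to 2.98 CPM. The choice of these cells used the same score genes, and with 1 library per group no difference between the groups was tested. Chga stood at 12326.3 CPM and Tff3 at 878 CPM in them, against 11795.7 and 1078.3 CPM in the EL1 members. Hdc stood at 105 CPM, a log2 ratio to the members of -0.25 (-0.56 to 0.05), and Penk at 83.5 CPM, or -1.13 (-1.46 to -0.81). Krt20, at 5.96 CPM on 6 UMIs, and Cldn7, at 6.96 CPM on 7 UMIs, had log2 ratios of -2.75 (-4.21 to -1.61) and -3.14 (-4.46 to -2.08).

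Against the 719 remaining WTg cells, 19.8% of 11954 measured genes were higher and 5.75% lower. Of the 791 genes that were higher in the EL1 members and measured in both libraries, 586 were higher here too, which is 74.1% of the EL1 genes and 25.9% of the 2262 WTg genes. Of the lower genes, 259 were shared, or 51.8% of 500 in EL1 and 41.6% of 623 in WTg. Among the 15 genes with the highest ratios in EL1, 14 had enough UMIs in WTg and 13 were higher by the rule, and among the 15 lowest 13 were lower. Slc18a2 stood at 227 against 12.9 CPM, a log2 ratio of 4.14 (3.90 to 4.38), and Chgb at 1249.9 against 237 CPM. Of the granule list, 12 of 17 genes were higher and 0 lower in WTg, and of the channel list 11 of 15. Klk1, the lowest gene in EL1, stood at 315 against 617 CPM among the WTg cells, with a log2 ratio of -0.97 (-1.13 to -0.81). Gp2 did not differ by the rule, at 985 against 1007.2 CPM, a log2 ratio of -0.03 (-0.13 to 0.06), whereas it was 2.79 in EL1. Compared with the EL1 members directly, the WTg cells had more Serpina1b (561 against 34.5 CPM), Pcsk2 (320 against 7.07 CPM) and Slc18a2 (227 against 79.6 CPM).

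**Figure D5:**
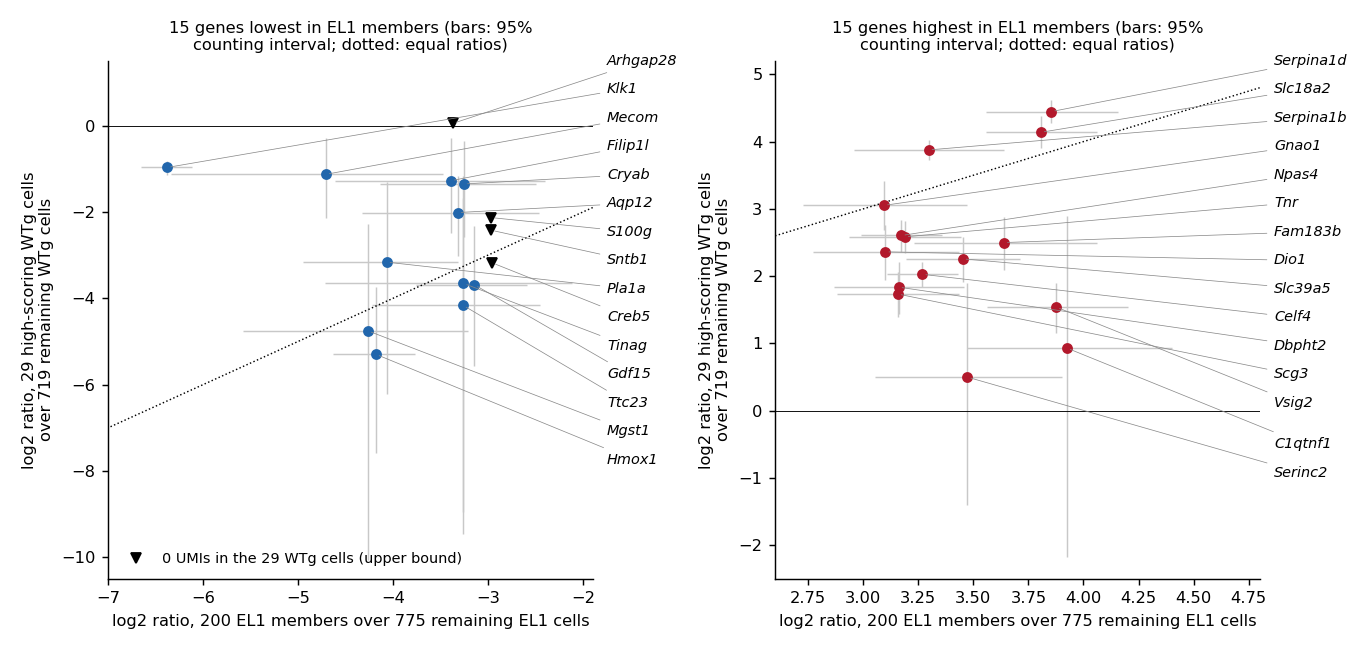
Log2 ratio of CPM in the 29 high-scoring over the 719 remaining WTg cells, against the same ratio in EL1, for the 15 lowest (left) and the 15 highest (right) genes in the EL1 members, with 95% counting intervals, the line of equal ratios, and black triangles for upper bounds where the WTg cells had 0 UMIs. All 15 genes at the right lie above 0 in WTg, although the intervals of C1qtnf1, which had too few UMIs there, and Serinc2 reach below it, and Klk1 lies far from the line, at -0.97 in WTg and -6.38 in EL1.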

How the data were processed

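Single-cell RNA of EL1 and WTg tumours was measured with 10x Chromium 3′ libraries, 1 per group. The deposited matrices hold UMI counts of 32285 genes in each barcode. The authors ran Cell Ranger (version 6.0.2 per the file headers). The submitters' processing notes name GRCm38. Whether intronic reads or strand were used is not given in the sources used here, so overlapping genes cannot be told apart.

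The sparse matrices were used as deposited. Counts were summed over cells and divided by all UMIs of the same cells (CPM). All intervals are at 95%: exact Poisson for CPM, conditional binomial for ratios of CPM, and Clopper-Pearson for shares of cells. They cover counting error only. A count of 0 was replaced by 3, which makes the ratio a bound. Clustering used scanpy 1.11.5 (2000 variable genes, 30 principal components, 15 neighbours, Leiden resolution 1, leidenalg 0.10.2), and Scrublet an expected doublet rate of 2%. Called doublets were kept. Coordinates are from GENCODE M21 (GRCm38). Ratios, intervals and thinning were tested on simulated data.

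The members, the gene lists and the tests were chosen with earlier results of these data known. Genes were named by the rule given in the report and from 31 gene lists, by highest level or largest ratio, or as defining markers near 0. C1qa, Plvap and Prss1 are list genes singled out after their values were seen. Some list genes are counted but not reported here by name. Alternatives changed the cell filter, the number of members, the remaining cells, the scaling (edgeR 4.0.16, R 4.3.3), the score, the gene filter and the file (the deposited dense table of counts).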

Additional observations from a re-analysis of the deposited data

Results flagged for a closer look

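For 6 genes followed across settings, the log2 ratio of CPM, high-scoring over remaining cells, had opposite signs in EL1 and WTg. Neither counting interval reached 0. The difference between the libraries was not tested, since each group has 1 library. The log2 ratio of Prss1 was 2.52 in EL1, where 1 cell held at least 50% of the UMIs, and -1.30 in WTg. Reg1 had 0.17 and -1.09, Tff2, a trefoil peptide, 0.24 and -0.34, and Cpa3 0.94 and at most -0.35, the latter a bound since the WTg cells had 0 UMIs. Of the proliferation genes, Mki67 had -0.41 in EL1 and 0.49 in WTg, and Rrm2 -1.22 and 0.57. The positive EL1 ratios of Reg1 and Tff2 were smaller than the shift of -0.28 that TMM scaling makes, so their sign depends on the scaling. In WTg the median log2 ratio of all genes was 0.46, close to the values of Mki67 and Rrm2 there.

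Among the 646 EL1 barcodes that the filter removed, 37 had a score of at least 1.014. Of these, 19 had under 5000 UMIs, 1 had over 20% mitochondrial UMIs and 17 had both, and their median was 2031 UMIs. They held Chga at 10513.4 CPM, Penk at 211 CPM, Hdc at 44.5 CPM and Slc18a2 at 133 CPM. A single UMI weighs more in the score of such barcodes than in that of the members.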

How the results depend on the processing

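No paired analysis was possible because EL1 and WTg are represented by a single library each, and no difference was tested. Of 125 counts of genes or cells recomputed under alternative settings, 102 stayed within 1.5 times the reported count and 23 did not. The count of higher genes was 547 with TMM scaling, 5176 with no minimum of UMIs per gene and 480 with at least 200 UMIs, and the last 2 settings gave 1066 and 288 lower genes. The count of lower G2/M genes, reported as 1, was 5 with the 100 highest scores, 4 with TMM scaling, 2 with the 100 cells after the members left out, with a mean over cells, or without Resp18 or Hdc in the score, and 0 with at most 10% mitochondrial UMIs, without cells of over 10000 genes, without other cell classes, without Penk, Chga, Krt20 or Cldn7 in the score, with at least 200 UMIs, with the dense table, and without shared barcodes. The WTg cells at or above the limit were 3 with the 100 and 95 with the 300 highest scores. The log2 ratio of Pcsk2 became -1.40 and that of Prss1 -1.23 with the 100 highest scores. The cause was not tested.

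Of 111 genes followed, 88 were past the limit of 1, and 75 stayed past it in the same direction under every setting run. The exceptions were Rab27a, Pcsk2, Cacna1d, Abcc8, Pdx1, Prss1, Cpb1, Reg3g, Klf6, Pimreg, Plk1, Tapbp and Rrm2. Leaving out the barcodes shared by both libraries was chosen after seeing the data. With 1 library per group no value has a replicate, and depth limits genes with few UMIs, such as Pcsk2, most.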

Other observations

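Members with and without a UMI of Krt20 or Penk after thinning were also compared for genes outside the score, as values with no test. The 19 members with a Krt20 UMI after thinning had less Mki67 than the 181 without, at 10.9 against 124 CPM, on 6 and 722 UMIs. Of 6767 genes, 0.31% were higher and 5.84% lower by at least 1 on the log2 scale in the 19, whose median depth was 22788 UMIs against 25480 UMIs. Chgb, by contrast, stood at 717 and 685 CPM. The 62 members with a Penk UMI had more Obp2a, an odorant-binding protein of the lipocalin family, at 590 against 172 CPM, found in 18 of these members and in 27 of the other 138. They also had more Fst, follistatin, at 91.8 against 33.8 CPM. Obp2a was among the leading genes of the small cluster that held 15 members, together with Krt79, Ctla2a, Tnr and Nefl, a neurofilament gene.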
